A study of Mus musculus with 15 samples.

Results

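Primary ileal organoids, epithelial cultures grown from crypts of C57BL/6 mouse ileum, were exposed for 24 h to 1 of 2 bile acid pools that share the proportion of 12α-hydroxylated bile acids (12HBA, 90%) and differ in the species whose bile acids they model. The members are the 3 libraries of the mouse-like pool, M90 (a, b and c), and the 3 libraries of the human-like pool, H90 (a, b and c). These 6 of the 15 RNA-seq libraries of the series were taken by their titles. Members and gene lists were chosen with earlier results of these data known. The other 9 libraries are 3 of M10 (mouse-like pool with 10% 12HBA), 3 of H10 (human-like pool with 10% 12HBA) and 3 of vehicle, and they are used here for the spread between libraries, for the same contrast at the low share and as levels for orientation. All 15 were at passage 2, were opened mechanically to expose the lumen and were kept in DMEM with 0.2% BSA. The pools' members and concentrations are not given in the sources used here, so M90 against H90 compares 2 whole mixtures. The labels do not say whether a, b and c of a group came from separate mice or cultures, so p-values measure the spread between these libraries, which may be technical.

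Bile acids are made from cholesterol in the liver, and human and mouse livers make different ones: mice turn much of their chenodeoxycholic acid into muricholic acids, which human bile largely lacks, and conjugate nearly only with taurine, where human bile acids carry mostly glycine. In ileal enterocytes bile acids enter by an apical transporter, bind a small cytosolic carrier and leave through a basolateral heterodimer. Inside, they are ligands of the nuclear receptor FXR (Nr1h4), which switches on the carrier, the exporter and the hormone Fgf15 that restrains bile acid synthesis in liver. Individual bile acids differ in how strongly they activate FXR, and some muricholic acids are known to oppose it. The epithelium itself is renewed from dividing stem and progenitor cells of the crypt, whose descendants become absorptive enterocytes or secretory goblet, Paneth, enteroendocrine and tuft cells.

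Total counts were 20589358, 23556439 and 23756333 in M90 a, b and c and 24084774, 17451139 and 11245807 in H90 a, b and c. Levels below are CPM, the counts of a gene scaled to a common library total after TMM correction, and differences are log2 changes, M90 minus H90. The cultures matched their label: all 15 of 15 ileal epithelial markers were detected, with a summed level of 26933 to 27520 CPM in M90 and 18884 to 20530 CPM in H90. Markers of other cell types were low, with sums over whole lists of 19.9 to 25.1 CPM in M90 and 16.3 to 23.5 CPM in H90 for 13 mesenchymal genes, and 10.2 to 11.3 CPM in M90 and 8.04 to 10.6 CPM in H90 for 14 immune genes. The T and B cell genes Cd3g, Cd8a, Cd4 and Ms4a1 were at 0 in all 6 libraries, as were the mesenchymal gene Thy1 and the neural gene Sox10. Sums of 24 liver genes did differ, with 360.4 to 425 CPM in M90 against 601 to 919 CPM in H90, and their part in the other results was not tested.

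H90 was less uniform than M90. H90 a had 31.0 CPM (on plain totals) of the liver transcript Mup20, against 0.356 to 0.583 CPM in the other 5 libraries, 0 CPM of the collagen Col1a1 against 3.74 to 8.63 CPM, and 14143 CPM of the ribosomal precursor Rn45s against 2031 to 3215 CPM. By Mup20 and Col1a1, H90 a was like the vehicle and H10 libraries and H90 b and c were like M10 and M90, a split that no label names. Its Rn45s level stood alone among all 15 libraries. H90 c was the shallowest library and stood alone on the second principal component of the 6 libraries, at 41.7 (22.7% of variance), with H90 a and b at -24.3 and -25.8 and M90 a to c at 1.81 to 3.97. The first component (49.0%) held the pools apart, with M90 at -34.9 to -30.1 and H90 at 25.9 to 40.9. H90 libraries also had fewer genes at exactly 1 count (221 to 297) than M90 libraries (466 to 603), and the part of this in the results was not tested. Every gene group below is therefore also given without H90 a, where that changes a count.

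The question put by this comparison is whether pools modelled on mouse and human bile acids act differently on ileal epithelium when both are dominated by 12HBA. The difference reached over a large share of the transcriptome. Of 13159 tested genes, 5102 (38.8%) differed at an edgeR quasi-likelihood adjusted p under 0.05, the threshold used throughout for "rose" and "fell". In M90, 2532 genes (19.2%) were higher and 2570 (19.5%) lower. Most differences were modest, with a median absolute log2 change of 0.45 among called genes. Only 859 genes (6.53%) were both called and at least 2-fold apart, and these leaned downward, with 268 higher and 591 lower in M90. CPM ranges of the 3 M90 and the 3 H90 libraries did not overlap for 6066 genes (46.1%). The largest rises and falls ranked below were chosen partly for ranges without overlap, so for them that was set by the choice. They include Nr0b2, Mcm5, E2f7, Olfm4, Acaa1b, Pdk4, Zg16, Dmbt1 and Clu. The near-even split of directions depends on scaling: with library totals alone the median of all genes moved to -0.13 and 30.1% of called genes were higher, against 49.6% with TMM scaling. Without H90 a, 2281 of 13401 genes were higher (17%) and 2248 lower (16.8%), and 4262 of the 5102 calls were kept with the same sign. The counts in this paragraph are the background against which each gene group below is to be read.

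**Figure D1:**
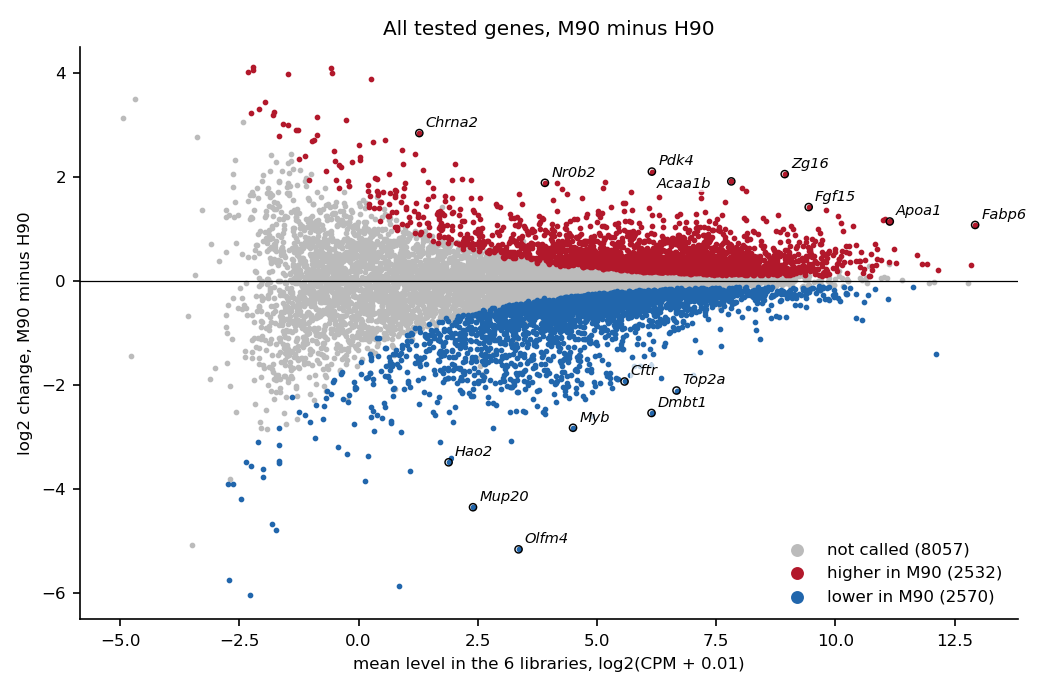
Log2 change, M90 minus H90 (vertical axis), against the mean level of each gene in the 6 libraries (horizontal axis, log2 of CPM plus 0.01) for the 13159 tested genes, with 2532 genes higher in M90 in red, 2570 lower in blue and the others in grey. Olfm4 and Hao2 lie far below 0 and Zg16, Pdk4 and Acaa1b well above it, while Fabp6 combines a rise with the highest level of the labelled genes.

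Bile acid genes were higher with the mouse-like pool: of 8 genes of bile acid sensing and transport, 7 were higher in M90 and 0 lower, with a median log2 change of 0.99 against -0.01 over all tested genes. The intracellular carrier Fabp6 had 10703, 10612 and 10457 CPM in M90, against 4463, 5390.3 and 5199 CPM in H90. All M90 libraries lay far above all H90 libraries, a 2.11-fold higher level with a log2 change of 1.08 (SE 0.10, edgeR adjusted p = 4.9e-06). The hormone gene Fgf15 had 1064, 958 and 1013 CPM in M90, against 345, 413 and 375 CPM in H90, a 2.68-fold higher level with a log2 change of 1.42 (SE 0.0717, edgeR adjusted p = 1.21e-11). Nr0b2, which encodes the repressor SHP and is a classical FXR target, had 23.6, 23.9 and 23.5 CPM in M90, against 5.91, 8.02 and 5.08 CPM in H90. Its groups did not overlap, and its level was 3.7-fold higher, with a log2 change of 1.89 (SE 0.237, edgeR adjusted p = 3.86e-07). Fabp6 lies at chr11:43596049-43601540, Fgf15 at chr7:144896531-144900953 and Nr0b2 at chr4:133553376-133556536 (GRCm38).

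Both subunits of the basolateral exporter moved by nearly equal factors. Slc51a (OSTα) had 1546, 1455 and 1540.0 CPM in M90, against 720.5, 806 and 792 CPM in H90, and its log2 change was 0.97 (SE 0.0448, edgeR adjusted p = 4.86e-19). Slc51b (OSTβ) had 752, 721 and 739.8 CPM in M90, against 335, 393 and 377 CPM in H90, and its log2 change was 1.0 (SE 0.0493, edgeR adjusted p = 2.4e-18). For neither subunit did any H90 library reach an M90 library. The receptor gene itself, Nr1h4, was 1.3-fold higher, with 165 ± 7.53 CPM in M90 and 127 ± 5.73 CPM in H90 (SD, n = 3 each) and a log2 change of 0.38 (SE 0.053, edgeR adjusted p = 2.77e-07). The manganese exporter Slc30a10 was 1.68-fold higher, with 54.7 ± 9.6 CPM in M90 and 32.7 ± 1.29 CPM in H90 (SD, n = 3 each) and a log2 change of 0.75 (SE 0.126, edgeR adjusted p = 0.000123).

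The apical importer was the exception. Slc10a2 (ASBT), which FXR signalling is known to restrain in mouse ileum, had 50.1, 41 and 42.9 CPM in M90, against 43, 49.8 and 35.5 CPM in H90. The groups overlapped throughout, and the log2 change of 0.05 (SE 0.144, edgeR adjusted p = 0.827) had a 95% interval of -0.26 to 0.36. In the remaining groups its mean was 141 CPM in M10, 70 CPM in H10 and 61.5 CPM in vehicle. For orientation, vehicle libraries held 56.7 ± 9.22 CPM of Fabp6 and 16.8 ± 2.22 CPM of Fgf15 (SD, n = 3), so both 90% pools stood far above vehicle and differed between themselves in degree.

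**Figure D2:**
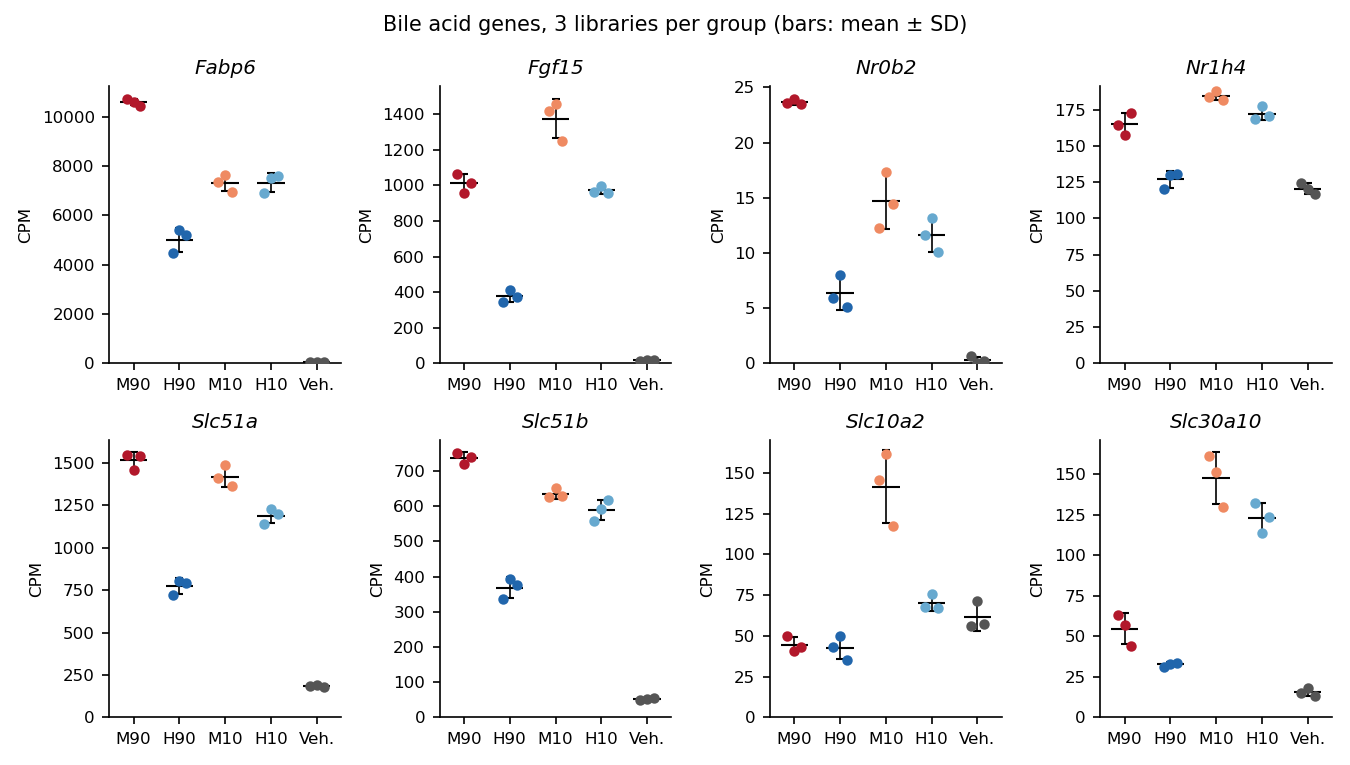
CPM (linear axes starting at 0) of the 8 bile acid genes in each of 3 libraries of M90, H90, M10, H10 and vehicle, with bars for the mean and SD. For Fabp6, Fgf15, Nr0b2, Slc51a and Slc51b the 3 M90 points lie above the 3 H90 points without overlap, and for Slc10a2 they intermingle.

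FXR binds an inverted repeat of a hexamer half-site spaced by 1 base (IR1). The promoter windows (250 bases before to 50 after the start, RefSeq, GRCm38.p6) were searched on both strands for AGGTCANTGACCT with up to 2 mismatches. A match stood in 1.2% of 9799 tested genes with a window, in 1.3% of all 27025 windows and in 1 of 7 bile acid genes with a window, which was Fabp6. Its match is shown in capitals because it lies at a strongly responding gene, and it spans bases 222 to 210 before the start.
Fabp6 (chr11:43601742-43601812, minus strand): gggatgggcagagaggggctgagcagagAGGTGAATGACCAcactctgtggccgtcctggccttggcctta

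Among FXR target genes of liver and gut 15 of 22 tested members rose and 0 fell, with a median log2 change of 0.71. Without H90 a, 14 rose and 0 fell. Beyond the genes above, Apoc2, a cofactor of lipoprotein lipase, was 2.82-fold higher and Apoc3, which slows lipoprotein clearance, 2.22-fold higher. The apical exporter of conjugates Abcc2 (MRP2) was 1.67-fold higher, with a log2 change of 0.74 (SE 0.0461, edgeR adjusted p = 1.03e-15). The scaffold Slc9a3r1 (NHERF1) was 1.58-fold higher and the inducible nitric oxide synthase Nos2 1.94-fold higher. The hepatic export pumps Abcb11 and Abcb4, better known from liver, had log2 changes of 0.19 (adjusted p = 0.84) and -0.36 (adjusted p = 0.763) by edgeR and were not called. IR1 letters stood in 2 of 17 windows of this list (11.8%, against 1.2% of tested genes). These were Fabp6, already counted above, and Abcb11, which was not called.

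The gene list with the largest median difference was that of cell division, lower in M90: 0 of 40 proliferation genes rose and 40 fell, with and without H90 a, and the median log2 change was -1.87. The DNA-untangling enzyme Top2a had 38.5, 37.9 and 38.9 CPM in M90, against 189, 152 and 154 CPM in H90. M90 libraries were tightly grouped and H90 libraries lay between these and vehicle (252 CPM), and the level was 4.3-fold lower with a log2 change of -2.1 (SE 0.0768, edgeR adjusted p = 3.38e-21). Mcm5, a subunit of the replicative helicase, had 6.93, 9.95 and 8.43 CPM in M90, against 54.2, 51.3 and 48.4 CPM in H90, 6.07-fold lower in M90 with a log2 change of -2.6 (SE 0.139, edgeR adjusted p = 1.82e-16). The atypical E2F repressor E2f7 had 0.954, 1.39 and 0.77 CPM in M90, against 6.34, 8.89 and 5.25 CPM in H90, and its log2 change was -2.72 (SE 0.298, edgeR adjusted p = 1.67e-09). None of these 3 genes had overlapping groups. The mitotic kinase Cdk1 was 3.39-fold lower and the ribonucleotide reductase subunit Rrm1 3.69-fold lower. Cdc20, which activates the anaphase ubiquitin ligase, was 3.64-fold lower, and the proliferation marker Mki67 3.51-fold lower. The smallest fall of the list was that of Pcna, the DNA polymerase clamp, 1.42-fold lower with 80.3 ± 1.58 CPM in M90 and 114 ± 4.9 CPM in H90 (SD, n = 3 each). In bulk RNA, fewer dividing cells and less of these transcripts per cell cannot be told apart.

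Cell division genes are known to carry E2F sites (genes of DNA synthesis) or the CHR element next to CCAAT boxes (genes of mitosis) near their starts. The same windows were searched on both strands, with no mismatch, for TTTGGCGC or TTTCCCGC (E2F), TTTGAA (CHR) and CCAAT, and matches to different motifs may share bases. Of 32 proliferation genes with a window, 8 held E2F letters (25%, against 3.3% of tested genes and 1.8% of all windows). CHR letters stood in 12 (37.5%, against 14.2% and 20.2%) and CCAAT in 24 (75%, against 43.1% and 41.1%). The windows of 3 replication genes and E2f7 with E2F letters and 3 mitosis genes with CHR letters are shown with the match in capitals, since both classes fell. Each is printed on the strand of its gene, and for Mcm5, Cdc6 and E2f7 the match reads on the other strand.
Mcm5 (chr8:75109330-75109397, plus strand): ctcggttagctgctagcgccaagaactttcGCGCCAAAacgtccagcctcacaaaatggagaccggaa
Mcm6 (chr1:128359778-128359845, minus strand): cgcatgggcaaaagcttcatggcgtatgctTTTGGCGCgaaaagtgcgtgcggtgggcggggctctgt
Cdc6 (chr11:98907983-98908050, plus strand): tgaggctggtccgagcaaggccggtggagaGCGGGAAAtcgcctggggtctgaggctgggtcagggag
E2f7 (chr10:110745211-110745278, plus strand): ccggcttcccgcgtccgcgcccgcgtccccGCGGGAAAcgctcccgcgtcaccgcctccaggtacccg
Top2a (chr11:99024333-99024398, minus strand): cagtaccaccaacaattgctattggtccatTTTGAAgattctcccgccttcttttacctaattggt
Cdk1 (chr10:69352948-69353013, minus strand): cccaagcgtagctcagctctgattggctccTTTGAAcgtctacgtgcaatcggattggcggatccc
Cdc20 (chr4:118437344-118437391, minus strand): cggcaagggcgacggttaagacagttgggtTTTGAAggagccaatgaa

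The 4 genes shown with E2F letters had log2 changes of -2.72 to -1.6 and the 3 shown with CHR letters -2.1 to -1.76, which overlap. Over all 8 proliferation genes with E2F letters the range was -2.72 (E2f7) to -1.35 (Cdt1). Over all 12 with CHR letters it was -2.15 (Bub1b) to -1.12 (Ect2). The helicase subunit Mcm6 had a log2 change of -1.96 (SE 0.0968, edgeR adjusted p = 2.52e-18) and the origin licensing factor Cdc6 one of -1.6 (SE 0.236, edgeR adjusted p = 8.16e-07) by edgeR. A match is a description of letters and not of a bound site.

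Crypt stem cell genes and targets of Wnt signalling, the pathway that maintains crypt stem cells, were also mostly lower in M90: 1 of 25 tested members rose and 18 fell, with a median log2 change of -0.86, and without H90 a 1 rose and 17 fell. Olfm4, a secreted glycoprotein of small intestinal stem cells, had 0.502, 0.782 and 0.385 CPM in M90, against 24.8, 18.6 and 16.3 CPM in H90. This was the largest fall among the ranked genes, 35.7-fold lower, with a log2 change of -5.16 (SE 0.255, edgeR adjusted p = 8.38e-16), and vehicle held 81.4 ± 5.12 CPM (SD, n = 3). Axin2, a feedback inhibitor and standard readout of Wnt signalling, had 7.13, 7.34 and 7.7 CPM in M90, against 39.6, 31.4 and 34.6 CPM in H90. It was 4.77-fold lower without overlap of the groups, with a log2 change of -2.25 (SE 0.133, edgeR adjusted p = 2.6e-16). Outside the list, the transcription factor Myb, required for crypt progenitors in mouse, had 5.62 ± 0.624 CPM in M90 and 39.5 ± 7.26 CPM in H90 (SD, n = 3 each), a log2 change of -2.82 (SE 0.157, edgeR adjusted p = 2.82e-16).

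Other members had smaller falls. The guidance receptor Ephb2 had a log2 change of -1.22, the crypt transcription factor Sox9 -1.16, Myc -1.09 and the stem cell factor Ascl2 -1.22 (edgeR adjusted p = 0.0146). Lgr5, the R-spondin receptor that marks crypt base stem cells, was low in both pools at 2.76, 3.13 and 2.87 CPM in M90, against 4.97, 4.23 and 4.15 CPM in H90. Its ranges did not overlap, but its log2 change of -0.61 (SE 0.271, edgeR adjusted p = 0.0719) did not pass. The single riser was Msi1, an RNA-binding protein of progenitors, at 0.84.

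Transcripts of ribosome production genes fell with them. Of 35 ribosome biogenesis genes, 0 rose and 32 fell, with and without H90 a, at a median log2 change of -0.71. The nucleolar protein Npm1 had 334, 335 and 329.8 CPM in M90, against 527, 542 and 526 CPM in H90, 1.6-fold lower with a log2 change of -0.67 (SE 0.049, edgeR adjusted p = 6.29e-14). Nop56, a core protein of box C/D small nucleolar particles, had 23.2, 26.8 and 29.3 CPM in M90, against 64.2, 63.4 and 63.9 CPM in H90, 2.41-fold lower with a log2 change of -1.27 (SE 0.094, edgeR adjusted p = 1.05e-13). Both genes kept their groups well apart. Nucleolin (Ncl) was 1.63-fold lower, and the largest fall was that of dyskerin, Dkc1, at -1.44. Rn45s, the ribosomal precursor itself, is not polyadenylated, and no change of it is read from these poly-A libraries.

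**Figure D3:**
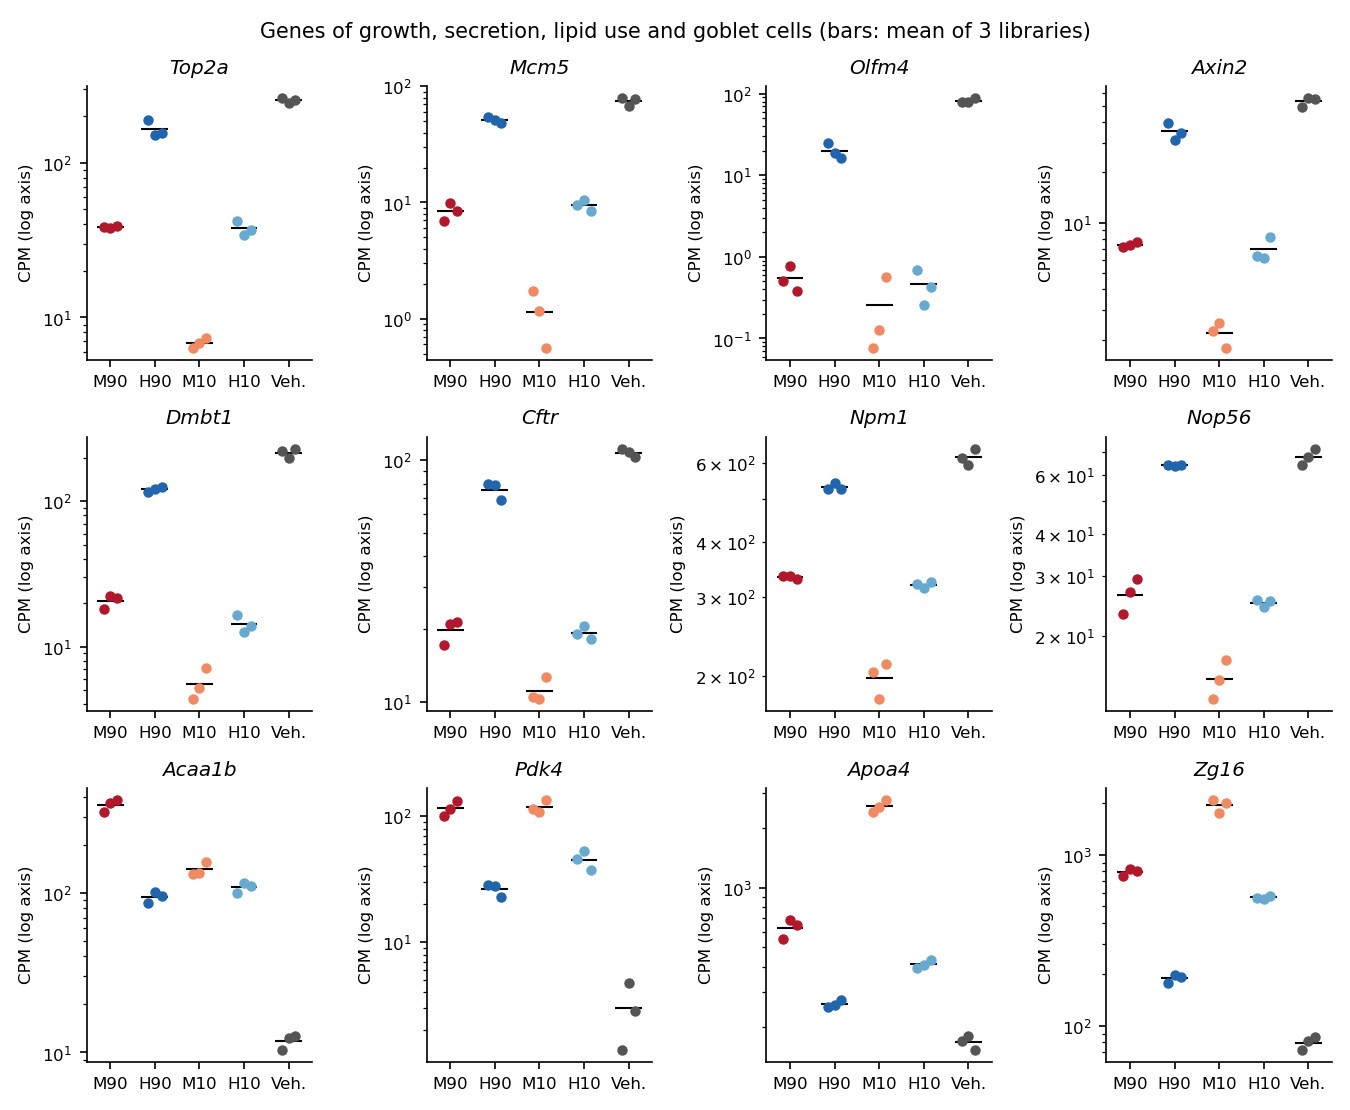
CPM (log axes) of 12 genes in each of 3 libraries of M90, H90, M10, H10 and vehicle, with bars for the mean. The first 8 genes, of division, crypt, defence, chloride secretion and ribosome production, are lower in M90 than in H90, and the last 4, of lipid use and mucus, are higher, in all 12 cases without overlap of the 3 and 3 libraries. Over all tested genes 46.1% had no overlap, and Mcm5, Olfm4, Dmbt1, Acaa1b, Pdk4 and Zg16 are ranked genes chosen partly for it.

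Genes of fatty acid oxidation and targets of the lipid sensor PPARα were higher in M90 almost without exception: 40 of 41 tested members rose and 0 fell, with a median log2 change of 0.62, and without H90 a 39 rose and 0 fell. The member that did not pass was the short-chain dehydrogenase Acads, at 0.06. Acaa1b, a peroxisomal thiolase, had 320.0, 369 and 380.3 CPM in M90, against 86.5, 102 and 95.7 CPM in H90. It was 3.77-fold higher, with a log2 change of 1.92 (SE 0.0791, edgeR adjusted p = 1.96e-16). Pdk4, the kinase that turns pyruvate oxidation off, had 101, 114 and 132 CPM in M90, against 28.7, 28.1 and 23 CPM in H90, 4.3-fold higher with a log2 change of 2.1 (SE 0.21, edgeR adjusted p = 9.28e-06). No H90 library reached an M90 library for either gene.

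Genes of lower level rose too. Acot12, a cytosolic acyl-CoA thioesterase, had 6.78, 5.52 and 7.74 CPM in M90, against 1.57, 1.03 and 1.61 CPM in H90, and its log2 change was 2.25 (SE 0.288, edgeR adjusted p = 4.81e-08). The fatty acid hydroxylase Cyp4a10 had 42.3, 59.6 and 68 CPM in M90, against 17, 16 and 12.2 CPM in H90, with a log2 change of 1.9 (SE 0.202, edgeR adjusted p = 1.85e-07). Acot1 to Acot6 and the Cyp4a genes are near-identical families, so counts may be split between members and these values are uncertain for single genes. The pantetheinase Vnn1 was 2.5-fold higher, while Cpt1a, the carnitine gate of mitochondrial import, was 1.18-fold higher, with a log2 change of 0.24 (SE 0.047, edgeR adjusted p = 6e-05). Of 8 tested ketone body genes 1 rose and 2 fell, a share called near that of all tested genes (38.8%). The 2 falls were the importer Slc16a1 (-0.38) and the thiolase Acat1 (-0.40). Without H90 c, or with library totals as the only scaling, 5 of the 8 were called.

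Genes of lipid uptake and chylomicron assembly moved with those of oxidation. In that list 28 of 31 tested members rose and 1 fell, the same counts without H90 a, with a median log2 change of 0.57. Apoa1, the main apolipoprotein of HDL, had 3116, 3266 and 2940.4 CPM in M90, against 1299, 1396 and 1522 CPM in H90, 2.21-fold higher with a log2 change of 1.15 (SE 0.0637, edgeR adjusted p = 2.54e-11). Apoa4, an intestinal apolipoprotein of chylomicrons, had 554, 684 and 647 CPM in M90, against 252, 257 and 272 CPM in H90, 2.42-fold higher with a log2 change of 1.27 (SE 0.0748, edgeR adjusted p = 3.15e-10). Both were well separated between pools. Fabp1, the fatty acid carrier shared with the PPAR list, was 2.19-fold higher, and Creb3l3, a membrane-bound transcription factor of lipid genes in gut and liver, had a log2 change of 1.22 (SE 0.0535, edgeR adjusted p = 1.65e-19). The lipid droplet protein Cidec was 2.57-fold higher and the microsomal transfer protein Mttp 1.53-fold higher. The 1 member that fell was the HDL receptor Scarb1, 1.3-fold lower.

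PPARα with its partner RXR, and also HNF4, bind a direct repeat of the half-site spaced by 1 base (DR1). AGGTCANAGGTCA with up to 2 mismatches on either strand was found in 6 of 32 windows of the oxidation list (18.8%) and 6 of 25 of the lipid absorption list (24%), 3 genes being in both, against 3.9% of tested genes and 4.4% of all windows. IR1 letters, which share the half-site, stood in 3 of the 32 oxidation windows (9.4%) and 0 of the 25. DR1 letters were not particular to these lists. The enterocyte list below shares Fabp1 with both lists, and Fabp2, Apoa1, Apoa4 and Apob with the lipid absorption list. It held DR1 letters in 7 of 34 windows (20.6%). FXR target windows held them in 2 of 17 (11.8%) and bile acid windows in 1 of 7 (14.3%). Windows of proliferation (32), ribosome biogenesis (31) and crypt stem cell and Wnt genes (16) held 0. The matches of 3 genes with strong rises are in capitals. Each is printed on the strand of its gene, and for Acot12 and Fabp1 the match reads on the other strand.
Acot12 (chr13:91741381-91741453, plus strand): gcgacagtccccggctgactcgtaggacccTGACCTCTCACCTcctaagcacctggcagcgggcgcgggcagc
Fabp1 (chr6:71199782-71199854, plus strand): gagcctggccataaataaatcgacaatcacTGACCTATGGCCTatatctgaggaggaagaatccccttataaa
Creb3l3 (chr10:81092758-81092830, minus strand): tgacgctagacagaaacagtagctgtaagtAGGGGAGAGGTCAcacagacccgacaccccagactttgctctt

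Mature enterocyte genes were higher as a group in M90: 30 of 36 tested members rose and 0 fell, with a median log2 change of 0.55, and without H90 a 29 rose and 0 fell. Krt20, a keratin of differentiated villus cells, had 1471, 1486 and 1485 CPM in M90, against 985, 1056 and 999.6 CPM in H90, with a log2 change of 0.55 (SE 0.0381, edgeR adjusted p = 2.04e-14). The peptide transporter Slc15a1 was 2.05-fold higher, aminopeptidase N (Anpep) 2.09-fold higher and intestinal alkaline phosphatase (Alpi) 1.68-fold higher. Members that did not pass include the purine enzymes Nt5e (-0.58) and Ada (0.37). In the retinoid list 9 of 15 tested members rose and 0 fell, at a median of 0.48. Rbp2, the enterocyte retinol carrier, was 2.04-fold higher, with a log2 change of 1.03 (SE 0.067, edgeR adjusted p = 3.27e-14). Isx, a repressor of carotenoid uptake known from mouse, was 2.27-fold higher. Outside the list, the retinol carrier Rbp7 was 5.89-fold lower, with a log2 change of -2.56 (SE 0.255, edgeR adjusted p = 7.3e-08).

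Genes of drug and steroid handling, under the receptors PXR and CAR, were mostly higher as well: 26 of 35 tested members rose and 2 fell, at a median log2 change of 0.37, with equal counts without H90 a. Por, the electron donor of all microsomal P450 enzymes, had 1083, 1056 and 1042 CPM in M90, against 594, 596 and 649.9 CPM in H90, with a log2 change of 0.79 (SE 0.0415, edgeR adjusted p = 1.09e-17). Cyp3a11, the leading PXR target in mouse, had 570.4, 648 and 699.9 CPM in M90, against 306, 330.4 and 321 CPM in H90. It was 2.0-fold higher without overlap, with a log2 change of 1.0 (SE 0.0787, edgeR adjusted p = 4.13e-08). The sulfotransferase Sult1d1 was 1.71-fold higher, and the receptor PXR itself, Nr1i2, 1.41-fold higher. The leading CAR target in mouse liver, Cyp2b10, was not called at -0.32 (edgeR adjusted p = 0.0617). Glutathione transferases such as Gstm1 (2.38-fold higher) belong to near-identical families and are uncertain one by one.

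**Figure D4:**
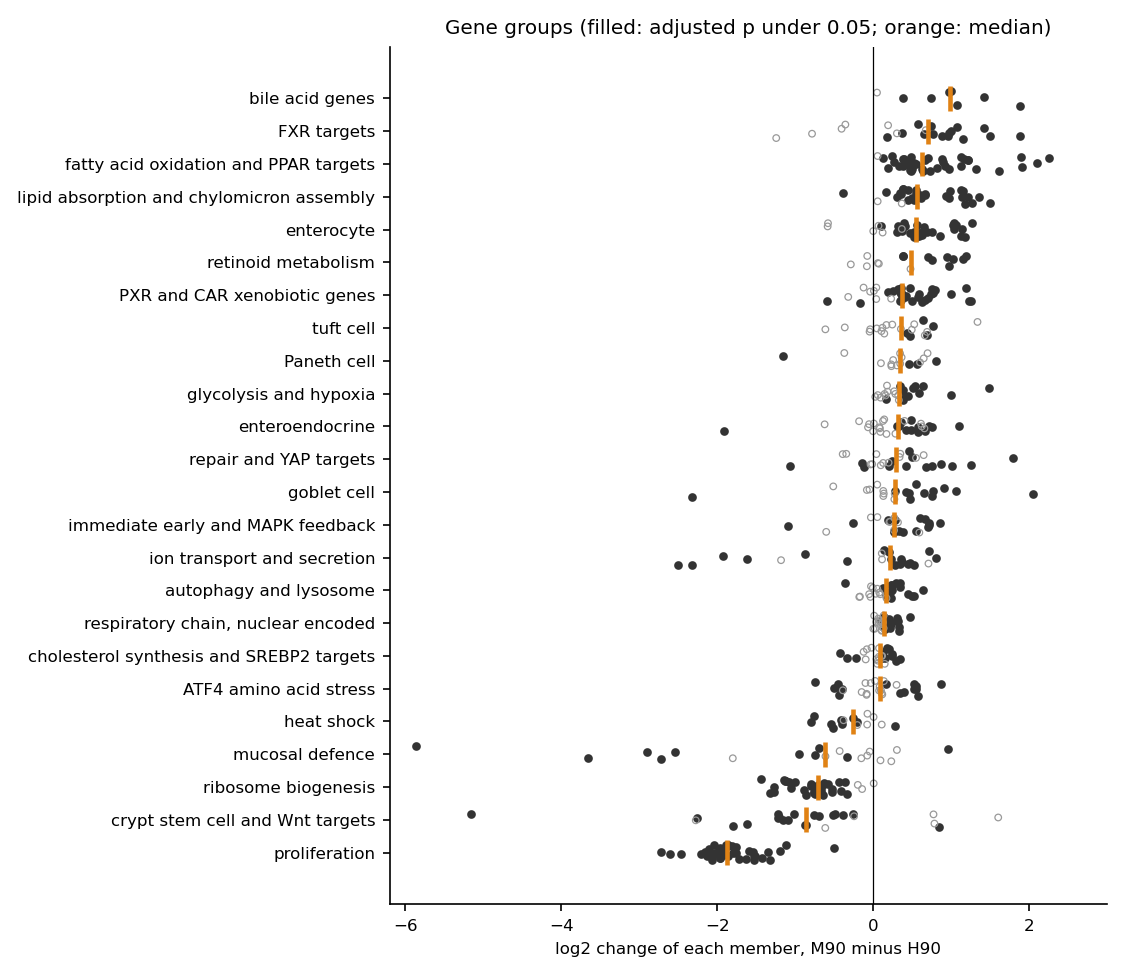
Log2 change of each tested member, M90 minus H90 (horizontal axis), in 24 gene groups ordered by their median (orange line), with filled points for adjusted p under 0.05 and open points for the others. Bile acid genes lie at the top with a median of 0.99 and proliferation genes at the bottom with a median of -1.87.

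Of the secretory lineages, goblet cells gave the largest rise of a single gene. In the goblet list 11 of 21 tested members rose and 1 fell, with or without H90 a, at a median log2 change of 0.29. Zg16, a lectin of the mucus layer, had 751, 820.2 and 799 CPM in M90, against 178, 199 and 194 CPM in H90. It was 4.16-fold higher with a log2 change of 2.06 (SE 0.0592, edgeR adjusted p = 2.08e-20), the smallest adjusted p among the ranked rises. Muc2, the gel-forming mucin, had 666, 759.7 and 741 CPM in M90, against 327, 334 and 374 CPM in H90, with a log2 change of 1.07 (SE 0.0862, edgeR adjusted p = 1.58e-07). Neither gene had overlapping groups. The trefoil peptide Tff3 was 1.87-fold higher and Spink4 1.69-fold higher. Atoh1, which commits cells to the secretory fate, had a log2 change of 0.46 (edgeR adjusted p = 0.00788), and Spdef, which drives goblet maturation, 0.28 (adjusted p = 0.136, not called). The 1 fall was Kcnn4, a potassium channel also found in crypt cells.

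Enteroendocrine genes rose more often than they fell. In that list 12 of 30 tested members rose and 1 fell, and without H90 a 9 rose and 2 fell. The members called numbered 13 in all, 8 without M90 b and 7 with library totals as the only scaling. Peptide YY (Pyy) was 2.14-fold higher, with 56.6 ± 2.34 CPM in M90 and 26.6 ± 2.48 CPM in H90 (SD, n = 3 each), secretin (Sct) 1.64-fold higher and cholecystokinin (Cck) 1.58-fold higher. Proglucagon (Gcg), source of GLP-1, was 1.24-fold higher. The 1 fall was that of Neurog3, the transcription factor of endocrine progenitors, 0.653, 0.782 and 0.556 CPM in M90, against 2.86, 2.6 and 2.03 CPM in H90. Neurog3 and Pyy went in opposite directions, with log2 changes of -1.91 (SE 0.465, edgeR adjusted p = 0.00102) for Neurog3 and 1.1 (SE 0.206, edgeR adjusted p = 0.000989) for Pyy.

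In the Paneth list 3 of 16 tested members rose and 1 fell, the 1 fall being Sox9, and without H90 a 4 rose and 1 fell. Without H90 c, or with DESeq2, 7 members were called. Lysozyme (Lyz1) had 90.5, 115 and 94.8 CPM in M90, against 79.1, 83.8 and 72.6 CPM in H90, with a log2 change of 0.35 (SE 0.133, edgeR adjusted p = 0.0572). Defensin genes are near-identical copies whose counts may be split, and Defa21 (0.56) was called among them. In the tuft list 5 of 21 tested members rose and 0 fell, at a median of 0.36, and without H90 a 6 rose and 0 fell. In the main fit the shares called in the Paneth and tuft lists were below the 38.8% of all tested genes. The taste channel Trpm5 (0.47) rose, and the tuft marker Dclk1 was not called at 0.11. Shares of cells were not measured, and cell number and transcript level cannot be told apart here either.

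Mucosal defence genes were mostly lower in M90 where they were called: 1 of 19 tested members rose and 9 fell, at a median log2 change of -0.61. Without H90 a, 2 rose and 6 fell. The 1 riser was Nos2. Dmbt1, a scavenger protein of mucus, had 18.2, 22.2 and 21.7 CPM in M90, against 117, 121 and 125 CPM in H90. It was 5.8-fold lower, with a log2 change of -2.54 (SE 0.0976, edgeR adjusted p = 1.59e-18), and -2.56 without H90 a. The immunoglobulin receptor Pigr, which carries IgA to the lumen, had 1113, 1124 and 1129 CPM in M90, against 1895, 1889 and 1868 CPM in H90, and its log2 change was -0.75 (SE 0.0379, edgeR adjusted p = 5.12e-18). The bactericidal lectin Reg3g had 354, 402 and 390.2 CPM in M90, against 622, 599 and 642 CPM in H90, and its log2 change was -0.70 (SE 0.0477, edgeR adjusted p = 1.19e-14). For these 3 genes the groups were apart in every library. By contrast the acute-phase gene Saa1 had 0.352, 0.391 and 0.257 CPM in M90, against 10.7, 0.922 and 0 CPM in H90, so its fall (-3.65) rested on H90 a, and without that library the change was -0.69 (adjusted p = 0.446). Saa2 (0.0502, 0 and 0.128 CPM in M90, against 10.4, 0 and 0.254 CPM in H90) and Lcn2 (0.0502, 0.347 and 0 CPM in M90, against 2.23, 0.271 and 0 CPM in H90) were likewise high in H90 a alone, and all 3 were high in the vehicle and H10 libraries too. Saa1 and Saa2 are near-identical, and their counts may be split.

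Ion transport genes moved in both directions. In that list 12 of 22 tested members rose and 6 fell, and without H90 a 8 rose and 6 fell. The falls included 5 genes of crypt chloride secretion. The chloride channel Cftr had 17.2, 20.9 and 21.4 CPM in M90, against 80, 78.8 and 68.2 CPM in H90, 3.81-fold lower with a log2 change of -1.93 (SE 0.0931, edgeR adjusted p = 1.51e-18). The basolateral chloride loader Slc12a2 (NKCC1) had 28.9, 37.6 and 36.4 CPM in M90, against 113, 108 and 94.3 CPM in H90, with a log2 change of -1.62 (SE 0.106, edgeR adjusted p = 2.78e-11). Both were lower in each M90 library than in any H90 library. The potassium channel parts Kcne3, Kcnq1 and Kcnn4, which recycle the charge, had log2 changes of -2.51, -0.88 and -2.32. The risers included absorptive genes, among them the chloride exchanger Slc26a3 (0.45), the sodium exchanger Slc9a3 (0.34) and the sodium pump subunit Atp1b1 (0.36), and the hormone of this axis, guanylin (Guca2a), at 0.47.

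Stress programmes gave mixed or small differences. Of the cytosolic and mitochondrial chaperones in the heat shock list, 1 of 15 tested members rose and 8 fell, at a median log2 change of -0.26, and without H90 a 0 rose and 8 fell. The mitochondrial chaperonin Hspd1 had a log2 change of -0.79 (SE 0.0498, edgeR adjusted p = 1.21e-15). In the endoplasmic reticulum list 3 of 26 tested members rose and 10 fell (without H90 a, 4 rose and 9 fell), with the chaperone Hspa5 (BiP) at -0.20 and Herpud1, a degradation factor, at 0.47. In the amino acid stress list under ATF4, 9 of 29 tested members rose and 6 fell. There the serine synthesis enzyme Phgdh fell (-0.74) while the stress hormone Gdf15 (0.87) and the transcription factor Ddit3 (0.53) rose. In the antioxidant list under NRF2, 11 of 23 tested members rose and 3 fell (without H90 a, 12 rose and 3 fell), among the risers catalase (Cat, 1.75-fold higher) and the glutathione synthesis subunit Gclm (1.58-fold higher). The medians of the ATF4 and NRF2 lists changed sign among scalings, so no group direction is given for them.

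Lipid synthesis genes moved in both directions. Among cholesterol synthesis genes 9 of 24 tested members rose and 3 fell, and without H90 a 6 rose and 3 fell. Among fatty acid synthesis genes 5 of 17 tested members rose and 8 fell, and without H90 a 5 rose and 7 fell. The medians of both lists changed sign among scalings. The desaturase of polyunsaturated fatty acids Fads2 had 49.5, 50.8 and 49.8 CPM in M90, against 121, 112 and 122 CPM in H90. It was 2.36-fold lower, with a log2 change of -1.24 (SE 0.0695, edgeR adjusted p = 6.09e-17), and its partner Fads1 was 2.45-fold lower. Fatty acid synthase (Fasn) had a log2 change of -0.40, while Me1, the NADPH-producing malic enzyme, rose by 1.03 on the log2 scale. Nuclear-encoded respiratory chain genes showed small rises, as 22 of 36 tested members rose and 0 fell at a median of 0.14. That count was 16 without H90 a and 6 with library totals as the only scaling, so it depends on the scaling.

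Growth-factor and early-response genes leaned upward. Among repair genes and targets of the coactivator YAP, 11 of 26 tested members rose and 3 fell, with or without H90 a. Clu, the secreted chaperone that marks revival stem cells in injured mouse gut, had 51.5, 53.1 and 59 CPM in M90, against 17.5, 15.8 and 13.3 CPM in H90. It was 3.47-fold higher, with a log2 change of 1.79 (SE 0.0996, edgeR adjusted p = 5.29e-17) and no overlap of the groups. The EGF receptor ligands Areg (2.02-fold higher) and Ereg (1.69-fold higher) rose too, and the fetal gut marker Ly6a was not called at -0.39. Among immediate early and MAPK feedback genes 13 of 24 tested members rose and 2 fell, and without H90 a 10 rose and 1 fell. The list held Zfp36, which shortens the life of cytokine mRNAs, at 0.71 and Fosl2, an AP-1 subunit, at 0.66, while Egr1 was not called at -0.03. In the interferon and MHC class I list 9 of 31 tested members rose and 1 fell. The share called there was below the 38.8% of all tested genes. The class I heavy chain H2-K1 was 1.41-fold higher, and the interferon target Isg15 was not called at -0.58.

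The genes with the largest changes at a mean of at least 2 CPM were ranked after asking for groups without overlap and for the same call without H90 a. The 15 largest rises ran from 1.79 to 2.84 on the log2 scale (SE 0.0592 to 0.574). They were led by Chrna2, a neuronal-type acetylcholine receptor subunit, at 3.47, 4.43 and 4.88 CPM in M90, against 0.744, 0.596 and 0.339 CPM in H90, which lies at chr14:66135039-66152948. The list went on with the thioesterases Acot3, Acot12 and Acot5, with Pdk4, Zg16, the water and glycerol channel Aqp3, the P450 enzyme Cyp1a1, Vwa1, Acaa1b, Celf6, Cyp4a10, Nr0b2, Mfsd7c and Clu. Cyp1a1, the leading target of the aryl hydrocarbon receptor, had 5.17, 7.17 and 5.99 CPM in M90, against 1.02, 2.11 and 1.69 CPM in H90, a log2 change of 1.95 (SE 0.324, edgeR adjusted p = 5.89e-06). The list of that receptor's targets also holds the receptor gene Ahr and its partner Arnt. Of its 7 tested members 2 rose, Cyp1a1 and Tiparp, and 2 fell (2 and 1 without H90 a). The falls were Ahr itself (log2 change -0.41) and the conjugating enzyme Ugt1a6a, 2.55-fold lower.

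The 15 largest falls ran from -5.16 to -2.51 (SE 0.0976 to 0.50). After Olfm4 at chr14:79984081-80023139 came Hao2, a peroxisomal hydroxyacid oxidase, at 0.452, 0.652 and 0.684 CPM in M90, against 4.97, 9.22 and 6.18 CPM in H90. Both were low in M90 in every library, and groups without overlap were a condition of the ranking. The falls also included Slfn9, Myb, Fignl1, E2f7, Mcm5, Bard1, Rbp7, Dmbt1, Ska1, Kntc1, Pbk and Pole2. Rbp7 is a retinol carrier and Pbk a mitotic kinase. Of the others, Fignl1 and Bard1 act in DNA repair, Ska1 and Kntc1 at kinetochores and Pole2 in DNA replication, and none of the 5 is in the proliferation list. Among genes with a mean of at least 2 CPM, the largest changes that lost their call without H90 a included the rises of Tymp and Rassf2 and the falls of Mup20 and Saa1. With TMM-scaled totals Mup20 had 0.603, 0.565 and 0.428 CPM in M90, against 29.2, 0.434 and 0.339 CPM in H90, and its log2 change of -4.35 became 0.41 (edgeR adjusted p = 0.569) without H90 a. Of 23 tested liver genes 1 rose and 6 fell, and without H90 a 2 rose and 2 fell. Their share called in the main fit was below the 38.8% of all tested genes. The number of liver genes called ran from 3 (without M90 b, or with the groups alone) and 4 (without M90 a) to 16 (without H90 b, or with no filter on low counts).

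The same species contrast exists at the low share, M10 against H10, with no library in common. There 4779 of the 13159 tested genes were called. Of the 5102 genes called at the 90% share 84.97% had the same sign at 10%. Of these 5102 genes, 2799 were called with the same sign and 178 with the opposite one. Over all tested genes the log2 changes of the contrasts had a Pearson correlation of 0.53, a description across genes that are not independent. The interaction, which tests whether the species contrast differs between shares, was called for 1943 genes (14.8%). M10 and H10 differ wholly in the library split described for H90 a, so at the low share the split and the pools cannot be told apart. At the 90% share H90 a lies on the H10 side of the split, so both contrasts carry it in the same direction. Mup20 had log2 changes of -4.35 at 90% and -5.78 at 10%, and Saa1 -3.65 and -5.83. The part of the split in the shared signs was not tested.

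By group, bile acid genes differed more between pools at the 90% share. Their median log2 change was 0.99 for M90 minus H90 and 0.26 for M10 minus H10, and the interaction was called for 7 of 8. For Fabp6 the contrast was 1.08 at 90% and -0.0037 at 10%, an interaction of 1.08 (SE 0.14, edgeR adjusted p = 0.000346). Slc10a2 went the other way, with 0.05 at 90% and 1.02 at 10%, an interaction of -0.97 (SE 0.197, edgeR adjusted p = 0.00405). Oxidation genes had medians of 0.62 and 0.19 and 31 of 41 interactions called. Cyp4a10 had contrasts of 1.9 at 90% and -0.66 at 10%.

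Proliferation genes had medians of -1.87 at 90% and -2.36 at 10% and 22 of 40 interactions called. Ribosome biogenesis had medians of -0.71 and -0.58 with 4 of 35 interactions called. Stem cell and Wnt genes had medians of -0.86 and -0.18 and 12 of 25 interactions called. For Olfm4, with 0.26 to 0.70 CPM in H10, the contrast was -5.16 at 90% and -0.96 at 10%. Apoa4 differed more at the low share, with 1.27 at 90% and 2.64 at 10%, an interaction of -1.37 (SE 0.104, edgeR adjusted p = 8.98e-08).

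**Figure D5:**
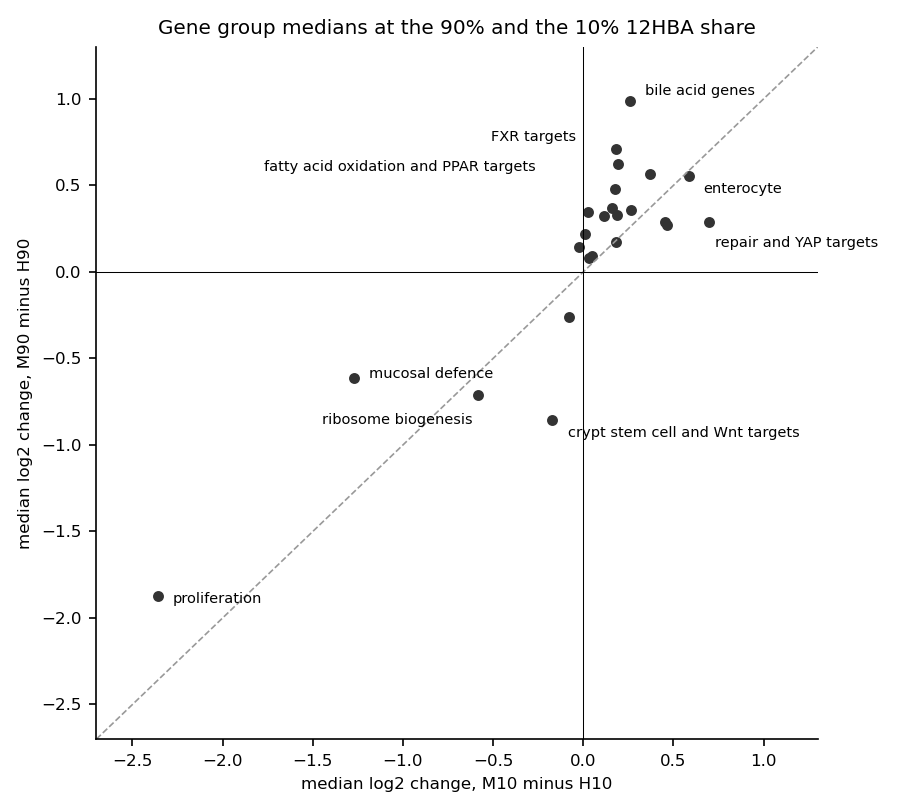
Median log2 change of 24 gene groups, M90 minus H90 (vertical axis) against M10 minus H10 (horizontal axis), with the line of equal change dashed. Bile acid genes lie above the line (0.99 against 0.26), enterocyte genes near it, and proliferation genes far down on both axes.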

How the data were processed

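The 15 libraries (5 groups of 3) were made by the authors from poly-A RNA with the TruSeq kit, per the labels' protocols. Each deposited file gives whole-number counts for 23420 gene symbols in 1 library. Per the submitters' processing notes, the build was mm10 (GRCm38) and the programs were STAR 2.5.2b for alignment, featureCounts 1.5.0-p3 and bcl2fastq 2.17. How strand and multimapping reads were handled, and which annotation was used, is not given in the sources used here, so overlapping genes and near-identical copies are uncertain.

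A model of the 5 group means was fitted to all 15 libraries in edgeR (filterByExpr, 13159 genes; TMM; glmQLFit with robust shrinkage), so that all groups share 1 estimate of the spread, and each contrast was tested with glmQLFTest, two-sided. P-values were adjusted by Benjamini-Hochberg over all tested genes, with 0.05 as the threshold. A standard error is the log2 change divided by the root of F. The biological coefficient of variation was 0.0881. CPM use TMM-scaled totals, except Mup20, Col1a1 and Rn45s in the account of library H90 a. A floor of 3 counts (0.117 to 0.254 CPM in the 6 libraries) covers counting error only. Versions were edgeR 4.0.16, DESeq2 1.42.0 and limma 3.58.1 under R 4.3.3. The code was tested on simulated data.

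The members and the 47 gene lists (1011 of 1029 genes found in the files) were chosen with earlier results of these data known, so list counts are descriptions. The text names 8 bile acid genes, the 15 largest rises and falls (adjusted p under 0.05 also without H90 a, mean of at least 2 CPM, no overlap of groups, no predicted genes), some that lose the call without H90 a, up to 4 members of a list with the smallest adjusted p and members named for their role. Rn45s was named after its values were seen. Some genes that the rule names are not reported here. Coordinates are from GENCODE vM21, which held 21777 of the symbols, and promoters from RefSeq (GRCm38.p6), which held windows for 9799 tested genes. Residuals of same-letter M90 and H90 libraries correlated at -0.0152, 0.0182 and -0.0102, so letters were not used as pairs. Replicates of a group differed by more than counting noise, so none were merged.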

Additional observations from a re-analysis of the deposited data

Results flagged for a closer look

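For 18 of the 37 bile acid and ranked genes the species contrast differed between the 90% share and the 10% share by the interaction test (edgeR, adjusted over 13159 genes). The interaction was called for 14.8% of all tested genes and for 1382 of the 5102 genes called in M90 minus H90. Each value is the interaction on the log2 scale with its adjusted p, followed by the contrasts M90 minus H90 and M10 minus H10. At the 10% share the split of libraries by Mup20 and Col1a1 and the pools cannot be told apart. The ranked genes were picked for large M90 minus H90 changes, which are a term of the interaction. A larger contrast of ranked genes at 90% was thus partly set by the choice. Bile acid genes with a larger contrast at 90% were Fabp6 at 1.08 (adjusted p = 0.000346; 1.08 and -0.0037), Fgf15 at 0.92 (adjusted p = 3.38e-06; 1.42 and 0.50) and Nr0b2 at 1.55 (adjusted p = 0.00146; 1.89 and 0.34). The exporter subunits gave 0.71 (adjusted p = 1.01e-10; 0.97 and 0.26) for Slc51a and 0.89 (adjusted p = 7.99e-12; 1.0 and 0.11) for Slc51b, and Nr1h4 gave 0.28 (adjusted p = 0.00783; 0.38 and 0.10). Slc10a2, with the larger contrast at 10%, gave -0.97 (adjusted p = 0.00405; 0.05 and 1.02).

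Ranked rises whose contrast was larger at 90% were Zg16 at 0.27 (adjusted p = 0.0226; 2.06 and 1.79) and Aqp3 at 1.48 (adjusted p = 0.0292; 1.97 and 0.49). Acaa1b gave 1.54 (adjusted p = 1.2e-10; 1.92 and 0.37) and Celf6 1.98 (adjusted p = 0.0325; 1.91 and -0.06). Mfsd7c gave 0.92 (adjusted p = 0.00679; 1.88 and 0.96), and Cyp4a10, whose contrasts had opposite signs, gave 2.56 (adjusted p = 3.94e-06; 1.9 and -0.66). Ranked falls that were deeper at 90% were Olfm4 at -4.2 (adjusted p = 0.000193; -5.16 and -0.96), Myb at -1.06 (adjusted p = 0.00567; -2.82 and -1.76) and Dmbt1 at -1.15 (adjusted p = 7.84e-06; -2.54 and -1.38). Olfm4 was low in both 10% pools, at 0.0766 to 0.56 CPM in M10 and 0.26 to 0.70 CPM in H10. Its contrast there had little room to be deeper. Falls that were deeper at 10%, where E2f7 was at 0 to 0.0427 CPM in M10, were E2f7 at 2.69 (adjusted p = 0.0167; -2.72 and -5.41) and Pbk at 1.66 (adjusted p = 0.00552; -2.52 and -4.18). Pbk was also low in M10, at 0.0509 to 0.613 CPM.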

How the results depend on the processing

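Over 17 alternatives (3 scalings, 2 filters, no robust shrinkage, limma-voom, DESeq2, the groups alone, the replicate block in 2 fits and leaving out each of 6 libraries) the number of genes called was 4306 to 5478, against 5102, and 4306 to 5012 when 1 library was left out. The interaction was called for 1502 to 2144 genes, against 1943, and for 1502 to 2072 when 1 library was left out. The share of called genes that were higher in M90 was 49.6%, was 30.1% with library totals as the only scaling, and was 42.9 to 51.6% elsewhere. The 37 bile acid and ranked genes kept their side of the threshold in all 17, and their direction too except for Slc10a2, not called at -0.06 to 0.17. The ranked genes were chosen for large changes, groups without overlap and a call without H90 a, which is 1 of the 17. For them the kept calls were thus partly set by the choice. Of 210 genes given by rule, 17 changed call under some alternative. The 1 reversal was Mup20, at 0.41 (adjusted p = 0.569) without H90 replicate a, the library with nearly all of its counts in H90, while the other libraries left out gave down to -4.90, that without H90 replicate b. The medians of 33 gene lists kept their sign, and 14, all within 0.28 of 0 on the log2 scale with TMM, changed it. Letters a to c did not pair libraries, and with the replicate block 5134 genes were called (2031 for the interaction), or 4516 in the fit of the groups alone. Adjusted p was undefined for 3 genes in DESeq2. H90 c, with 11245807 counts, limits what can be seen of genes under about 0.254 CPM, the level of 3 counts there.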

Other observations

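Clock genes and targets of glucocorticoids were among other groups that moved. In the circadian list 10 of 17 tested members rose and 1 fell (without H90 a, 9 rose and 1 fell), at a median log2 change of 0.25. The repressors Nr1d1 (REV-ERBα, 1.75-fold higher), Cry2 (2.0-fold higher) and Per1 (1.73-fold higher) rose, while the activators Arntl (-0.23) and Clock (-0.02) were not called. Sgk1, a glucocorticoid-inducible kinase of sodium transport, had 28.9, 31.1 and 29.5 CPM in M90, against 6.81, 11.6 and 8.04 CPM in H90, 3.4-fold higher with a log2 change of 1.77 (SE 0.128, edgeR adjusted p = 6.29e-14). In its list 7 of 12 tested members rose and 3 fell (without H90 a, 6 rose and 1 fell), with Hsd11b2, the enzyme that inactivates glucocorticoids, 2.1-fold lower. In the hypoxia and glycolysis list 12 of 23 tested members rose and 0 fell, with Vegfa 2.0-fold higher and Adm 2.79-fold higher, a count that ran to 19 without M90 c and 8 without H90 a.

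In the list of metal handling 14 of 27 tested members rose and 1 fell (without H90 a, 13 rose and 1 fell), with the duodenal iron reductase Cybrd1 2.49-fold lower. Among vitamin D targets 4 of 10 tested members rose and 2 fell (without H90 a, 4 rose and 1 fell), and the calcium carrier S100g had 317, 269 and 255 CPM in M90, against 101, 121 and 127 CPM in H90. Cyp27a1, a sterol hydroxylase of bile acid synthesis and vitamin D activation, was 3.01-fold higher, with a log2 change of 1.59 (SE 0.222, edgeR adjusted p = 2.77e-07). Among claudins and junction proteins 6 of 18 tested members rose and 3 fell (without H90 a, 5 rose and 3 fell), with the cation pore Cldn2 1.51-fold lower. In the amino acid transporter list 10 of 17 tested members rose and 3 fell (without H90 a, 8 rose and 3 fell), and Slc6a14 fell most, at -2.69. Autophagy and lysosome genes gave 15 rises and 1 fall of 27 (14 and 1 without H90 a), led by the cargo receptor Sqstm1 (1.56-fold higher), and 7 called under library totals as the only scaling. Among LXR targets 7 of 13 tested members rose and 3 fell (without H90 a, 6 rose and 2 fell). In the sphingolipid list 11 of 25 tested members rose and 5 fell (without H90 a, 10 rose and 6 fell). Among apoptosis genes 8 of 24 tested members rose and 3 fell (without H90 a, 8 rose and 2 fell). Of cell cycle inhibitors 6 of 16 tested members rose and 2 fell (without H90 a, 6 rose and 1 fell), with Gadd45b 2.33-fold higher and Cdkn2c 2.1-fold lower. Without H90 a, Cdkn2c had a log2 change of -0.79 and lost its call (edgeR adjusted p = 0.057). In the NF-kB and chemokine list 8 of 20 tested members rose and 2 fell (without H90 a, 6 rose and 1 fell), and of nuclear receptors 9 of 22 tested members rose and 6 fell (without H90 a, 9 rose and 4 fell). Of the marker lists of other cell types, the leukocyte gene Ptprc had 2.56, 2.26 and 2.22 CPM in M90, against 1.02, 0.271 and 1.95 CPM in H90, a log2 change of 1.18 (SE 0.531, edgeR adjusted p = 0.0775) that was called by limma-voom, by DESeq2 and without H90 c. The collagen Col1a1 had a log2 change of 0.51 (edgeR adjusted p = 0.71) and was called by limma-voom.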
